A study of Rattus norvegicus with 5 samples.

Results

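Carbonic anhydrases were followed across the zones of the mandibular condylar cartilage (MCC) and in the femoral condylar cartilage (FCC) of the rat. The genes described are Car1, Car2, Car3, Car4, Car8, Car9 and Car12, and every probe set that the platform annotation pairs with 1 of these symbols and no other was taken. This gave 7 of the 14217 genes with such a probe set, and 10 of the 31042 probe sets other than controls. The 7 genes were chosen by their log2 differences between the 5 arrays, with earlier results of these data known, so their values are a description and carry no test. Cells were captured by laser from 7 µm frozen sections of wild-type Sprague-Dawley male rats aged 5 weeks, and the 5 groups gave 1 array each. The groups were the fibrous zone (FZ), the proliferative zone (PZ), the mature chondrocyte zone (MZ) and the hypertrophic chondrocyte zone (HZ) of the MCC, and, as the reference, FCC tissue of the middle and deep zones. The lysates of 30 sections were pooled per group according to the sample labels, while the study's methods describe a larger pool for FZ, and how many animals stand behind a pool is not stated in either.

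Carbonic anhydrases are zinc enzymes that turn carbon dioxide and water into bicarbonate and a proton, and back. The family is divided by where its members sit. Car1, Car2 and Car3 are soluble enzymes of the cytoplasm, Car4 is held on the outer cell surface by a lipid anchor, Car9 and Car12 span the membrane with the catalytic domain outside the cell, and Car8 is a related protein that lacks catalytic activity and binds a calcium channel of the endoplasmic reticulum. In skeletal tissue Car2 is known for supplying protons to the osteoclast, Car1 and Car2 are abundant in red cells, Car3 is abundant in muscle and fat, and Car9 is a well-known target of the hypoxia-inducible factors, which act in the avascular interior of cartilage.

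RefSeq promoter windows of 300 bases on build GRCr8 were at hand for 3 of the 7 genes, Car4, Car9 and Car12. The stretches of Car9 and Car12 are shown because these are the membrane enzymes known as hypoxia targets and because Car9 had the widest range over the arrays and Car12 was flat. The core of the hypoxia response element, ACGTG, was searched on both strands (CACGT when read on the other strand), and the matches are in capitals. The Car9 stretch is chr5:62558924-62559053 and the Car12 stretch chr8:76169715-76169844, both on the plus strand and both with 100 bases before the transcription start and 30 from it.
Car9: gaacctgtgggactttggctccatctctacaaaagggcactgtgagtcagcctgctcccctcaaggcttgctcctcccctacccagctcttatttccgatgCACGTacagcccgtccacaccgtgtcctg
Car12: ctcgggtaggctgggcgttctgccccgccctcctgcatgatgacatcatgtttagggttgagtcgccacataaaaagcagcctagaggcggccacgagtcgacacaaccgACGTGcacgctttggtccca
Counted from 1 at the transcription start, the Car9 match began at base 2 on the minus strand. Car12 held 2 matches in its window, at bases 11 and 35 on the plus strand, of which the first is printed. Car4 held 2 as well, at bases −237 and −21. Of all 33469 promoter windows in the table, 19.3% held the motif on either strand, so a match is a common feature and describes only these letters.

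The array values are log2 values that the authors had set relative to the median array of each probe set. They tell how arrays differ but not how strongly a gene was expressed, and a value of 0 means the median array and not absence. With 1 array per group there is no spread between replicates, so no difference was tested, and the number of arrays limits the precision. As a yardstick, the SD between probe sets of the same gene had a median between 0.12 for MZ against HZ and 0.36 for PZ against FCC over 4525 genes. The 18 hybridization controls averaged 0.50 in FCC, 0.44 in PZ, −0.15 in FZ, −0.02 in MZ and −0.03 in HZ, so a shift to equal controls would raise every FZ value by 0.65 and every MZ or HZ value by 0.52 relative to FCC. PZ stood apart in the 3′ probe set of the GAPDH control, at −1.46, with the other arrays between −0.27 and 0.70. FCC stood apart in the 3′ probe set of the beta-actin control, at −1.76, with the other arrays between −0.12 and 0.24, and was lowest in the 5′ one too (−0.52). As levels are missing, it could not be tested whether a defining marker of cartilage is absent from an array. Of 20 hyaline cartilage matrix genes 18 exceeded the average of the MCC zones by at least 1 in FCC and 0 fell below it by as much, beside 4.70% and 5.13% of all genes. The list was chosen with earlier results of these data known. It holds genes that the study ranked among its strongest differences from FCC, so nothing is read from this count.

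Over the 5 arrays, 6 of the 10 probe sets, from 5 of the 7 genes, spanned a log2 range of at least 2 (4-fold), the size that the study counted as differential expression. The share among all probe sets was 6.51%, and nothing is read from the comparison because the genes were picked with these values known. At a range of at least 1 the counts were 7 of 10 and 26.9%. The first Car3 probe set (2.19) lay just inside the size of 2 and the second (1.14) well outside it. Car9 had the widest range, 6.48, which ranked 22 among all 31042 probe sets. Car1 followed with 3.98, Car2 with 3.27 and 3.03 by its probe sets, Car8 with 3.18, and Car3 with 2.19 and 1.14. Car4 (0.43 and 0.19) and Car12 (0.28) were flat. The genes that moved did so along different directions: Car1, Car2 and Car3 were highest in the deep zones (MZ and HZ), Car9 was lowest there, and Car8 was highest in FCC.

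**Figure D1:**
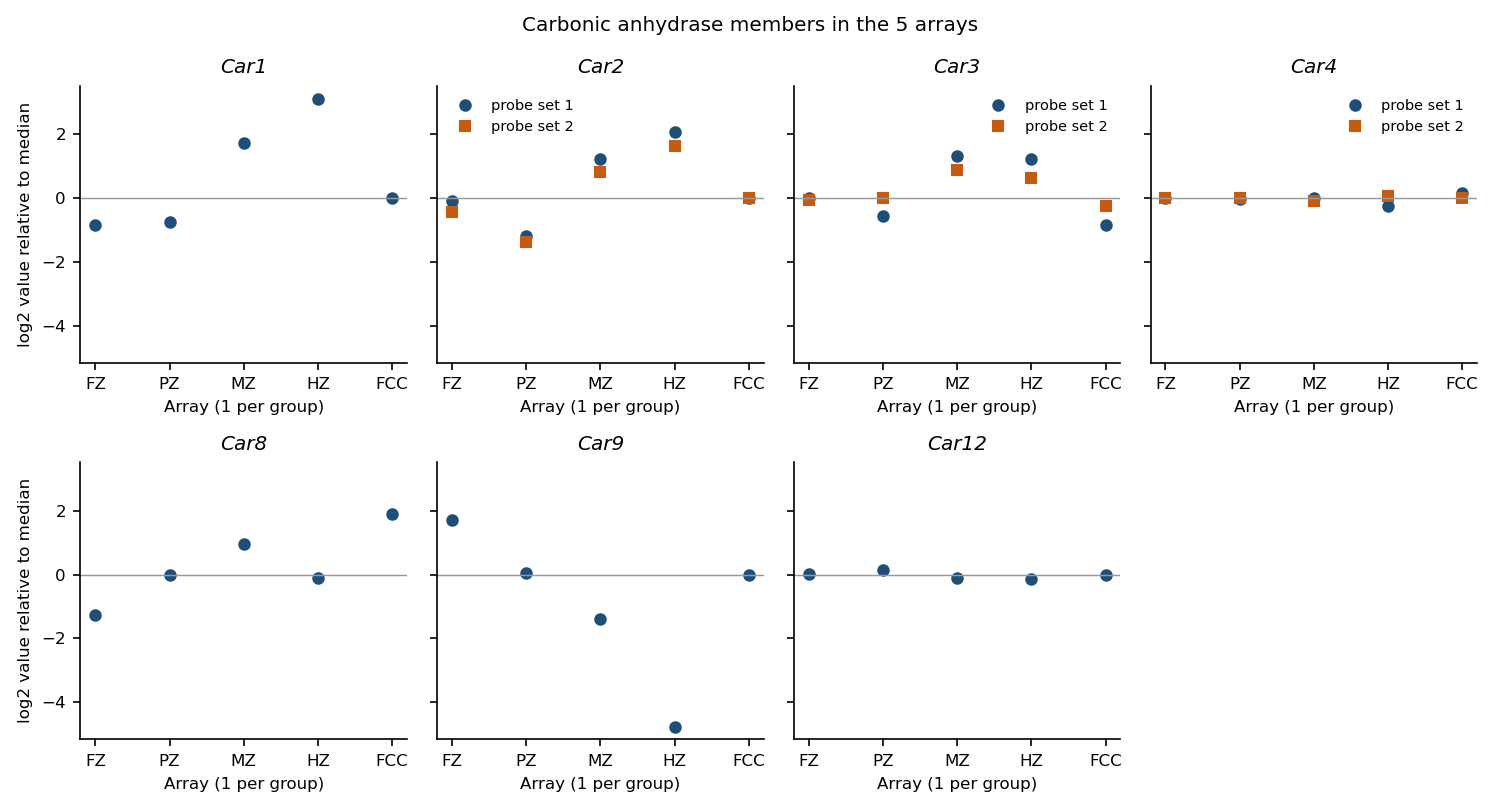
Log2 value relative to the median of the probe set (vertical axis) in each of the 5 arrays (horizontal axis), with 1 panel per gene and 1 symbol per probe set. Car1 reached 3.13 in HZ and Car9 fell to −4.77 there, whereas Car4 and Car12 stayed near 0 in all arrays.

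Car9, the membrane enzyme, followed a gradient from the surface to the depth of the MCC. It was 1.71 in FZ, 0.04 in PZ, −1.39 in MZ, −4.77 in HZ and 0.00 in FCC. FZ was the highest array and HZ the lowest, and PZ and FCC differed by 0.04, less than the typical spread between probe sets. The difference between FZ and HZ was 6.48 on the log2 scale, which is 89.3-fold. HZ was also 4.81 lower than PZ, 4.77 (27.2-fold) lower than FCC and 3.37 (10.4-fold) lower than its neighbour MZ. No other member passed 2 between MZ and HZ, where 0.158% of all probe sets did so. The gene is measured by 1 probe set (1393452_at), so no second probe set bears on these values. The study also measured Car9 by qRT-PCR, and those values were not analysed here. In captured pools of cells, fewer cells that express a gene and less of its RNA per cell cannot be told apart.

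Hypoxia response genes, a list of 38 measured genes that does not hold Car9, were compared with it. Between the deep and the superficial zones (FZ and PZ) 4 of the 38 were at least 1 lower in the deep zones and 0 were higher, beside 2.24% lower and 3.78% higher among all 14217 genes. The median of the list was −0.28, against 0.00 over all genes and −3.96 for Car9. After the shift to equal hybridization controls, which moves all genes alike, it was −0.11 for the list and −3.79 for Car9. The 4 were Bnip3, a mitochondrial protein of autophagy (−1.62), Higd1a, a factor of the respiratory chain (−1.50), Aldoc, a glycolytic aldolase (−1.21), and Egln3, a prolyl hydroxylase that marks the hypoxia-inducible factors for degradation (−1.05). They were named after their values were seen. Between FZ and HZ alone, 11 of the 38 were at least 1 higher in FZ and 0 in HZ, with a median of 0.64, beside 3.57% and 3.21% of all genes. In FCC the list had 11 genes at least 1 above the average of the MCC zones there and 1 below it, beside 4.70% and 5.13% of all genes, and a median of 0.60. Egln3 differed by 2.50, Bnip3 by 2.18 and Lox, a collagen cross-linking enzyme, by −2.28, while Car9 differed by 1.10. The shift to equal hybridization controls lowers Car9 to 0.66 in this comparison and every list gene by the same amount. The counts and the median of the list in FCC therefore depend on it. Hif1a, the oxygen-regulated factor itself, was 1.43 in FCC and between −0.47 and 0.17 in the MCC zones.

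The genes whose values lay closest to those of Car9 over the 5 arrays included proteins of the matrix. By the root mean square difference of the values these were Matn2, a matrilin of filament networks (0.48), Cpxm2, of the carboxypeptidase family (0.57), Col8a2, a short-chain collagen (0.57), Fam180a (0.70) and Ndufa4l2, a mitochondrial protein known to be induced in hypoxia (0.74). Matn2 was 1.15 in FZ, 0.00 in PZ, −1.68 in MZ, −4.30 in HZ and 0.74 in FCC. Ndufa4l2 was 1.81, 0.00, −0.69, −3.40 and 0.61 in the same order. Both had their highest value in FZ and their lowest in HZ, as Car9 did, but they were chosen by closeness to it over these same arrays. Cpxm2 has a second probe set, which was farther away at 1.05. When the Pearson correlation was used in place of the distance, here and below, only probe sets with a similar or wider range than the member were ranked. The 5 nearest genes of Car9 by it were Fndc1, Dpt, Col14a1, C1qtnf3 and Ucma. The 5 genes by distance had narrower ranges and were not ranked, so the lists could not share a gene. The correlation of Car9 with its 5 genes by distance ran from 0.96 to 0.99, over 5 arrays that share their normalization.

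Hyaline cartilage matrix genes had the largest median difference of the 10 lists between MZ and HZ, the neighbouring zones where Car9 differed by 3.37. Of its 20 genes, 14 were at least 1 higher in MZ and 0 in HZ, with a median of 1.72, beside 0.907% and 0.204% of all genes. Ucma, a small protein of the growth plate, differed by 3.54, Clec3a, a cartilage lectin, by 3.45, Comp, a collagen-binding glycoprotein, by 2.92, and Hapln1, the link protein of aggrecan, by 2.35. In FZ the matrix list had a median of −1.06, whereas Car9 was at its highest there. The genes of the list differed widely in FZ, from −5.90 for Clec3a to 1.54 for Prelp, and Fmod was 0.79.

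**Figure D2:**
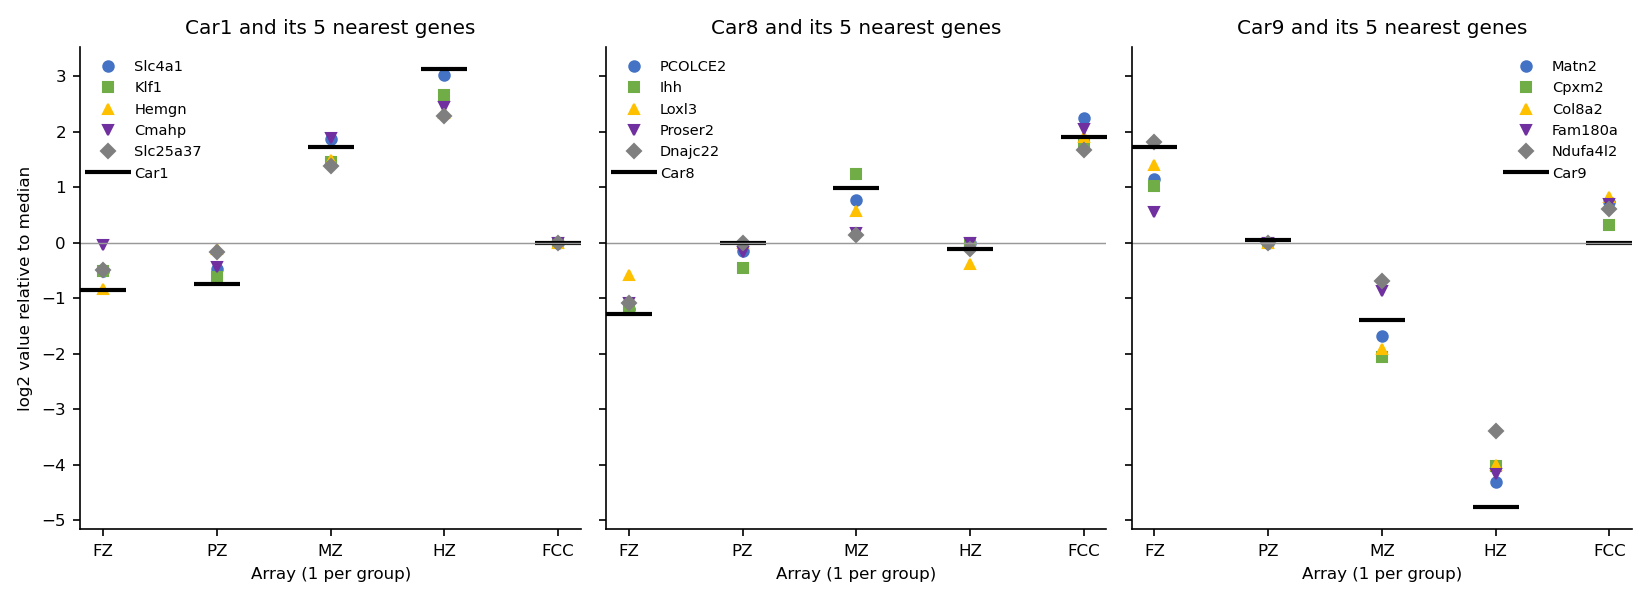
Log2 value relative to the median (vertical axis) in the 5 arrays (horizontal axis) for Car1, Car8 and Car9 (black bars) and, for each, the 5 genes with the smallest root mean square difference (coloured symbols). The genes near Car9 share its low value in HZ, between −3.40 and −4.30, and those near Car1 its high value there, between 2.28 and 3.03.

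Car1, the carbonic anhydrase typical of red cells, was −0.86 in FZ, −0.75 in PZ, 1.73 in MZ, 3.13 in HZ and 0.00 in FCC. Both deep zones lay above FCC and both superficial zones below it, and FZ and PZ differed by 0.10, less than the typical spread. HZ was 3.13 (8.74-fold) higher than FCC, 3.98 (15.8-fold) higher than FZ and 14.7-fold higher than PZ. The mean of MZ and HZ exceeded that of FZ and PZ by 3.23. Car1, too, is measured by 1 probe set (1372374_at).

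Genes known from the red cell lineage were among its nearest. The 5 were Slc4a1, the anion exchanger of red cells (root mean square difference 0.21), Klf1, a regulator of globin genes (0.29), Hemgn, a nuclear protein of blood cell precursors (0.47), Cmahp (0.50) and Slc25a37, the iron importer of erythroid mitochondria (0.51). Slc4a1, which carries the bicarbonate made by the enzyme across the red cell membrane, was −0.51 in FZ, −0.47 in PZ, 1.86 in MZ, 3.03 in HZ and 0.00 in FCC by this probe set. Its other probe set lay 1.35 away. Klf1 was −0.52, −0.62, 1.45, 2.65 and 0.00 in the same order. Slc4a1, Klf1 and Hemgn were among the 5 nearest by correlation as well, where the ranges of Cmahp and Slc25a37 were too narrow to be ranked.

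Erythroid markers, like Car1 and Car2, were higher in the deep than in the superficial zones. Of 19 measured genes, 14 were at least 1 higher in the deep than in the superficial zones and 0 were lower by as much, with a median of 1.50, beside 3.78% and 2.24% of all genes. Klf1 differed by 2.62, Nfe2, a factor of erythroid and platelet precursors, by 2.60, Alas2, which starts haem synthesis in erythroid cells, by 2.43, Hemgn by 2.39 and Rhd, a blood group protein, by 2.21. The median of the list was −0.58 in FZ, −0.30 in PZ, 0.56 in MZ, 0.99 in HZ and 0.00 in FCC. It was thus lowest in FZ, whereas Car2 was lowest in PZ by both probe sets (−1.18 and −1.38). The beta-globin gene Hbb was −0.75, −1.70, 0.01, 0.27 and 0.00 in the same order, so that it was low in both superficial zones and nearly level among the others, unlike Car1. The probe sets of the alpha-globins Hba-a1 and Hba-a2 carry both symbols and were not used. The part that red cells or their precursors have in the Car1 and Car2 values was not tested.

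Car2, the highly active enzyme shared by red cells, osteoclasts and many epithelia, is measured by 2 probe sets that followed each other closely. By the first (1367733_at) it was −0.08 in FZ, −1.18 in PZ, 1.23 in MZ, 2.08 in HZ and 0.00 in FCC. By the second (1386922_at) it was −0.42, −1.38, 0.82, 1.65 and 0.00 in the same order. Both gave HZ as highest, MZ as next and PZ as lowest, and the largest gap between them in any array was 0.44. FZ and FCC differed by 0.08 in the first and 0.42 in the second, where the typical spread was 0.26. HZ exceeded PZ by 3.27 and 3.03, FZ by 2.16 and 2.07 and FCC by 2.08 and 1.65, so that against FCC 1 of the probe sets passed 2 and the other did not. After a shift to equal hybridization controls both passed against FCC (2.61 and 2.17), and the second missed 2 in FZ against HZ (−1.95). Between PZ and MZ they differed by −2.41 and −2.20. In PZ the Car2 probe sets differed from the average of the other arrays by −1.99 and −1.89, and 5.54% of all genes were at least 1 lower there by the same measure, against 1.31% higher.

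Osteoclast genes were compared with Car2. Of 10 measured, 3 were at least 1 higher in the deep zones, Mmp9, a gelatinase (1.47), Ostm1, a partner of the lysosomal chloride channel (1.28), and Acp5, the tartrate-resistant phosphatase (1.28), and 0 were at least 1 lower, with a median of 0.70, beside 3.78% and 2.24% of all genes. None of the 10 reached 2. Ctsk, the collagen-degrading protease of osteoclasts, differed by 0.53, and Nfatc1, the transcription factor of osteoclast formation, by −0.58, and all 5 were named after their values were seen. In FCC this list had a median of −0.69 and 5 of its 10 genes were at least 1 below the average of the MCC zones, beside 5.13% of all genes, whereas Car2 was at 0.00 there by both probe sets. The part of osteoclasts in the Car2 values was not tested.

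Among the 5 nearest genes of the first Car2 probe set were Dennd1c (0.26), Bst1, an ectoenzyme of marrow stroma and myeloid cells (0.31), Tuba4a, a tubulin abundant in platelets (0.33), Nup210, a nuclear pore protein (0.34), and Plac8 (0.35). For the second they were Sema3g (0.23), Epor, the erythropoietin receptor (0.26), Arhgdib (0.26), Cxcl12, a chemokine of marrow stroma (0.28), and Lypd8l1 (0.29). The lists have no gene in common, although the probe sets lay only 0.32 apart from each other. Epor has 3 probe sets, and its nearest other one lay 1.05 away.

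Car3, a slow enzyme of muscle and fat cells, was 0.00 in FZ, −0.56 in PZ, 1.34 in MZ, 1.23 in HZ and −0.85 in FCC by its first probe set (1367896_at). By the second (1386977_at) it was −0.07, 0.00, 0.90, 0.64 and −0.25 in the same order. Both placed MZ and HZ on top and FCC at the bottom, and the deep zones exceeded the superficial zones by 1.57 and 0.80. Against FCC, the first probe set was 2.19 higher in MZ and 2.08 in HZ, and the second 1.14 and 0.88, so the size depends on the probe set. MZ and HZ differed by 0.11 in the first and 0.26 in the second, beside a typical spread of 0.12.

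Genes of muscle and fat, the tissues in which Car3 is abundant, were compared between the deep and the superficial zones. Of 17 skeletal muscle genes 0 were at least 1 higher in the deep zones and 2 were lower by as much, beside 3.78% and 2.24% of all genes. Their median was −0.05 (0.12 after the shift to equal hybridization controls), and Eno3, the muscle enolase, differed by −2.64. Of 15 adipocyte genes 2 were at least 1 higher in the deep zones and 0 lower by as much, with a median of 0.12, beside the same shares of all genes. The 2 were Cfd, the protease adipsin, at 2.10 and Pparg, the regulator of fat cell formation, at 1.17, named after its value was seen. Adipoq, the adipocyte hormone adiponectin, differed by −0.05. In HZ against FCC 2 muscle genes were at least 1 higher and 4 lower, beside 8.09% and 5.98% of all genes. For the adipocyte genes these counts were 1 and 0. In MZ against FCC the muscle genes past 2 were Myl1 (3.10), Tnnc2 (2.11), Tnni2 (−3.04) and Eno3 (−2.02), and Cfd differed by 2.45. The part of muscle or fat cells in the Car3 values was not tested. The genes closest to the first Car3 probe set were Arhgap25 (0.13), Ctsc, a protease activator of granules (0.13), Lat, an adaptor of T cells (0.13), Hcls1, a cytoskeletal protein of blood cells (0.13), and Entpd3 (0.14). Of these, Entpd3 alone was among the 5 nearest by correlation.

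Car1, Car2 and Car3 lie side by side on chromosome 2 of the rat. In the RefSeq gene order of GRCr8 they are consecutive protein-coding genes, Car2, Car3 and Car1, followed by Car13, which the platform annotation does not list. All 3 were higher in the deep than in the superficial zones, by 2.21 for Car2, 1.18 for Car3 and 3.23 for Car1 with the probe sets of a gene averaged. The next listed genes on the far side of Car13, chosen after their values were seen, were Rbis, a ribosome assembly factor (−0.40), E2f5, a repressor of the cell cycle (−0.11), and Slc7a12, an amino acid transporter (−0.17). None of these 3 neighbours was higher in the deep zones. The 9 protein-coding genes before Car2 are not listed.

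**Figure D3:**
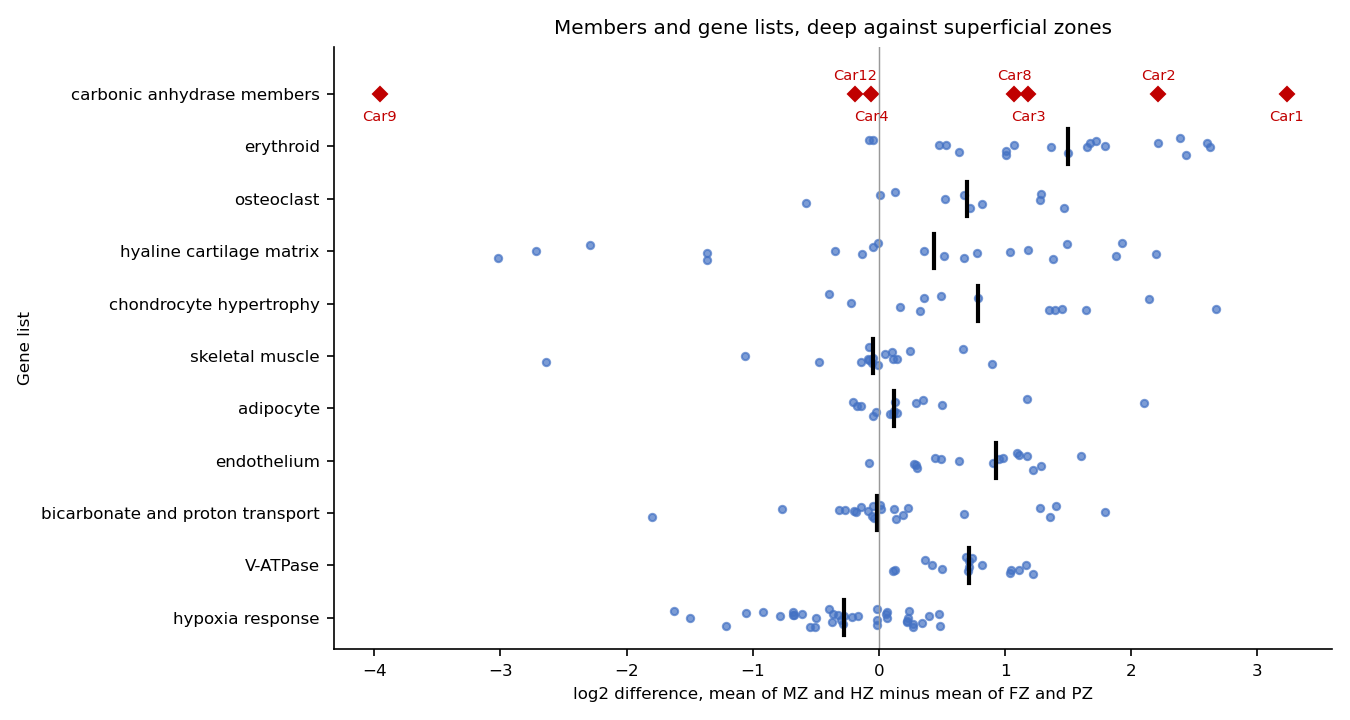
Log2 difference between the mean of MZ and HZ and the mean of FZ and PZ (horizontal axis) for the 7 carbonic anhydrase genes (red diamonds) and for the genes of 10 lists (blue dots), with a black bar at the median of each list. Car1 (3.23) lies above every dot of the erythroid list and Car9 (−3.96) below every dot of the hypoxia list.

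Car8, the carbonic anhydrase-related protein without enzyme activity, was −1.28 in FZ, 0.00 in PZ, 0.98 in MZ, −0.11 in HZ and 1.90 in FCC (1398431_at). FCC was highest and FZ lowest, and within the MCC it peaked in MZ. PZ and HZ differed by 0.11, less than the typical spread. FZ was 3.18 (9.09-fold) lower than FCC and 2.25 lower than MZ, and HZ was 2.02 lower than FCC. FCC exceeded the mean of the MCC zones by 2.01, or by 1.57 after a shift to equal hybridization controls. The difference between HZ and FCC is −1.49 after the same shift, below the size of 2.

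Genes of chondrocytes and of collagen assembly were among those nearest to Car8. PCOLCE2, an enhancer of procollagen processing (root mean square difference 0.20), and Ihh, the hedgehog signal of prehypertrophic chondrocytes (0.24), were the nearest. Loxl3, a collagen cross-linking enzyme (0.38), Proser2 (0.38) and Dnajc22 (0.40) followed. Ihh was −1.22 in FZ, −0.45 in PZ, 1.23 in MZ, 0.00 in HZ and 1.81 in FCC, in the same order of arrays as Car8 apart from PZ and HZ. By correlation the 5 nearest were PCOLCE2, Snorc, Extl1, Col2a1 and Cnmd, of which Snorc, Col2a1 and Cnmd are genes of the hyaline cartilage list. That list had medians of −1.06 in FZ, 0.00 in PZ, 0.17 in MZ, −1.13 in HZ and 1.90 in FCC, so it shared with Car8 the high value in FCC and the low one in FZ, but was low in HZ.

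Car4 and Car12 hardly differed between arrays. Car4, the lipid-anchored enzyme of capillary endothelium and other surfaces, lay between −0.26 (HZ) and 0.17 (FCC) by its first probe set (1368437_at) and between −0.10 (MZ) and 0.08 (HZ) by its second (1391132_at). Car12 (1391198_at) lay between −0.14 in HZ and 0.14 in PZ. Of 16 endothelial genes, 6 were at least 1 higher in the deep zones and 0 were at least 1 lower, beside 3.78% and 2.24% of all genes, with a median of 0.93 and Cldn5, a tight junction protein, at 1.60, a value seen before it was named. Without levels, flat values cannot be separated into steady expression and signal at background. Among all probe sets 43.5% had a range under 0.5, as all 3 probe sets of these genes did.

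The remaining carbonic anhydrases of the annotation, 7 genes with 11 probe sets, complete the family. Of these, 3 probe sets had a range of at least 2, and 6 had one under 0.5. Car10 and Car11 are, like Car8, relatives without enzyme activity. Car11 was 2.20 in FCC and between −0.14 and 0.16 in the MCC zones by 1 probe set (1391970_at). A further probe set gave 1.77 in FCC and −0.39 to 0.14 in the zones, and the third 0.56 and −0.03 to 0.00. All 3 placed FCC highest, as Car8 did, but without the differences among the MCC zones. Car5b, a mitochondrial enzyme, was 1.48 in FZ, 0.00 in PZ and MZ, −0.92 in HZ and 0.00 in FCC by 1 probe set (1390807_at), and 0.60, 0.19, 0.00, −0.26 and 0.00 by the other. FZ was highest and HZ lowest in both, the same ends as for Car9. Car5a, the mitochondrial enzyme of liver, Car6, the secreted enzyme of saliva, Car7, Car10 and Car14 had ranges between 0.04 and 0.48.

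**Figure D4:**
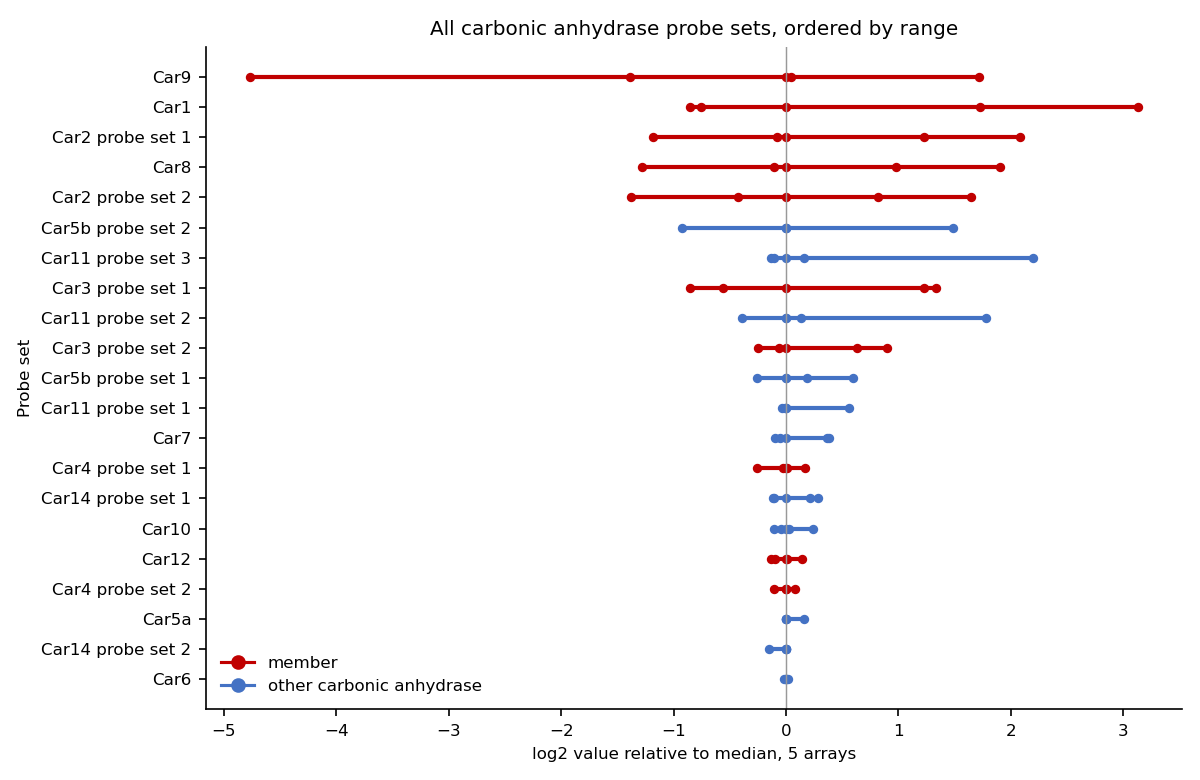
Log2 values relative to the median (horizontal axis) of the 5 arrays for all 21 carbonic anhydrase probe sets (vertical axis), each line running from the lowest to the highest array. Ranges run from 0.04 for Car6 to 6.48 for Car9, and members are in red.

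In the 10 pairwise comparisons of arrays, 22 of the 100 differences of the members reached 2, and 14 of these were among the 40 that involve HZ. Car9 alone accounted for 5. The share of all probe sets past 2 is given beside each count, and nothing is read from it. The comparisons share arrays and are not independent. Against HZ, 4 of the 10 probe sets passed for FZ (1.25% of all probe sets), 4 for PZ (1.74%), 1 for MZ (0.158%) and 5 for FCC (3.55%). With MZ, 3 passed for FZ (0.854%), 3 for PZ (1.11%) and 1 for FCC (2.47%). In the remaining comparisons, 1 passed between FZ and FCC (2.13%), 0 between PZ and FCC (2.43%) and 0 between FZ and PZ (0.609%). In the last pair of comparisons the largest member differences were −1.90 (Car8, PZ against FCC) and 1.67 (Car9, FZ against PZ). The shift to equal hybridization controls takes Car9 past 2 in FZ against FCC (2.36) and against PZ (2.26), Car1 in MZ against FCC (2.25), and the first Car3 probe set in PZ against MZ (−2.36) and against HZ (−2.26).

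**Figure D5:**
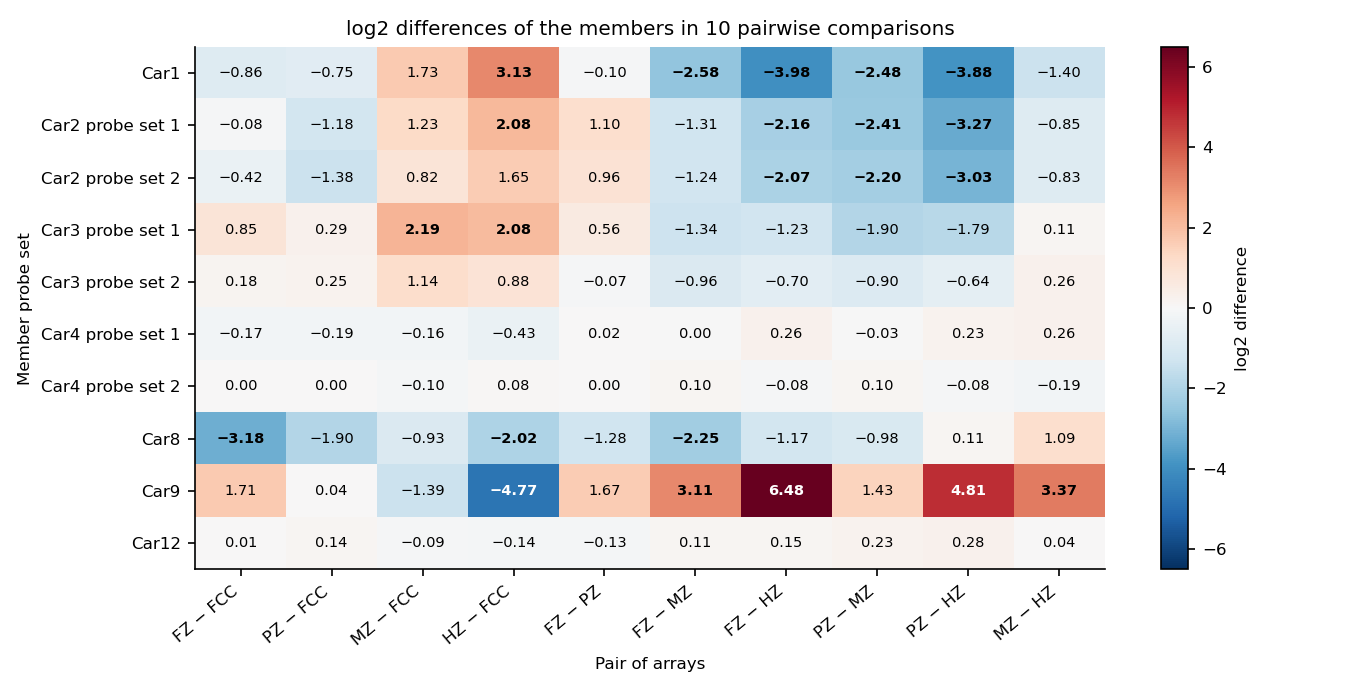
Log2 differences of the 10 member probe sets (rows) in the 10 pairwise comparisons of arrays (columns), coloured from blue (lower in the first array) to red (higher), with sizes of at least 2 in bold. The HZ comparisons hold most bold cells, with opposite signs for Car9 and for Car1 and Car2.

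Transporters that work beside these enzymes were compared as a list of bicarbonate and proton carriers. Of 22 genes, 4 were at least 1 higher in the deep zones and 1 was lower by as much, with a median of −0.02 (0.15 after the shift to equal hybridization controls), beside 3.78% and 2.24% of all genes. They are named with their values already known. The higher ones were Slc4a1 (1.79 as the mean of its probe sets), Slc16a7, a monocarboxylate carrier, Slc4a2, the widespread anion exchanger used by osteoclasts (1.35), and Ostm1 (1.28). For Slc4a2 the difference came from the low value in PZ (−2.46), as FZ (0.06), MZ (0.30) and HZ (0.00) lay close together. The lower one was Slc16a3, the carrier that exports lactate together with protons from glycolytic cells, at −1.80. It was 0.11 in FZ, 0.00 in PZ, −1.07 in MZ, −2.41 in HZ and 0.51 in FCC, and thus lowest in HZ, as Car9 was. Subunits and accessory proteins of the proton pump V-ATPase were at least 1 higher in the deep zones in 5 of 16 genes and lower by as much in 0. The median was 0.72, and the shares of all genes were 3.78% and 2.24%. Between FZ and HZ alone, 0 of the 16 differed by at least 1 in either direction, beside 3.57% and 3.21% of all genes. The median of FZ minus HZ was −0.54. In PZ the same 5 genes were at least 1 below the average of the other arrays, beside 5.54% of all genes, with a median of −0.67 for the list. Of 13 genes of chondrocyte hypertrophy, 6 were at least 1 higher in the deep zones and 0 were at least 1 lower, beside 3.78% and 2.24% of all genes. Their median was 0.79, with Col10a1, the collagen of hypertrophic cartilage, at 2.67 and Spp1, osteopontin, at 2.14.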

How the data were processed

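The deposited values are log2 values made by the authors with RMA: intensities were quantile-normalized across arrays and log2-transformed, and each probe set was baselined to its median, which is 0 for all 31099 probe sets. MAS5 is also named in the submitters' processing notes, without a version, and the study's methods describe background correction under it. The study's filter on low intensities needs levels and was not applied. Control probe sets (57) were set aside. Of the remaining 31042, 20826 carry 1 gene symbol in the platform annotation, 436 carry several and 9780 are not listed and stay unnamed. Names and gene order came from the RefSeq table of GRCr8, and all 7 members matched it.

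Differences between arrays, counts at log2 differences of 2 (members) and 1 (lists) and distances between profiles were computed in Python 3.11.15 (pandas 2.3.3, numpy 2.4.6, and matplotlib 3.10.9 for plots). Genes in lists have the mean of their probe sets. With 1 array per group there was no test. The members and the 10 gene lists were chosen with earlier results of these data known. Named were all carbonic anhydrases, the 5 nearest genes of each member probe set with a range of at least 2, and up to 5 genes per list past 2. Other list genes were named after their values were seen. The functions were tested on simulated data. The study's qRT-PCR values were not analysed here.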

Additional observations from a re-analysis of the deposited data

How the results depend on the processing

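Centring each array on its median changed nothing, since those medians are 0. The number of member probe sets with a range of at least 2 was 6 after the shift by hybridization controls and at a threshold of 1.4, and 7 at a threshold of 1. The number of member genes was 4 of 7 with the probe sets of a gene averaged, where Car3 drops out, and 5 without probe sets of the _s_at, _x_at and _a_at kinds. Of the 30 genes named as nearest to a member, 9 were also among the 5 nearest by Pearson correlation. The correlation ranked only probe sets with a range at most 1 narrower than that of the member. All 5 genes of Car9, and Cmahp and Slc25a37 of Car1, were outside that set. The count of 9 therefore does not measure how far the choice between distance and correlation matters. The shift by hybridization controls moved 21 of 53 differences and list medians by more than the typical spread between probe sets. Under it the deep against superficial medians near 0 changed sign for the skeletal muscle list (−0.05 to 0.12) and for the bicarbonate and proton transport list (−0.02 to 0.15). With the most variable probe set of each gene, the hypertrophy list's deep against superficial median rose to 1.22. No paired analysis was possible because each group has 1 array. Whether a probe set also takes signal from a related carbonic anhydrase was not tested.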
